A study of Rattus norvegicus with 3 samples.

Results

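Genes of G protein and cAMP signalling were followed in the kidney inner medulla of rats given lithium for 1 month, set against control rats. A gene was a member when its single symbol in the probe annotation began with Adcy, Pde and a digit, Prkac, Prkar, Akap, Gna and i, o, q, s, t, z or a digit, Gnb or Gng and a digit, Rgs, Creb or Crem. This gave 78 genes on 95 probes, of 4390 named genes on the array. On each of 3 arrays the lithium RNA was labelled red and set against green control RNA on the same spots. Arrays 1 and 2 held a pool of 2 rats in either channel, and array 3 held 1 rat in either. The sources used here give no strain, age or lithium dose. Probes carried a log ratio of the channels with no base stated, so folds are given for both base 10 and base 2. Values above 0 are taken as higher with lithium. This direction was assumed because lithium RNA is channel 1 in the labels, but no source used here states which channel is the numerator. The water channel gene Aqp2, which lithium is known to lower, was above 0 on every array, so the direction is in doubt. No array had the dyes exchanged, so a dye effect and a lithium effect cannot be told apart for any gene.

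A receptor coupled to the stimulatory G protein makes adenylyl cyclase produce cAMP, which releases the catalytic subunits of protein kinase A (PKA) from its regulatory subunits. Phosphodiesterases break cAMP down, anchoring proteins hold PKA at its place in the cell, RGS proteins shorten the active state of G alpha subunits, and CREB-family factors carry the signal to genes. In the collecting duct vasopressin uses this path to place the water channel Aqp2 in the apical membrane, and lithium is known to blunt the response. The prefix rule also took in Adcyap1, the peptide PACAP that stimulates cyclases, its receptor Adcyap1r1, and Pde4dip, a centrosome and Golgi protein that binds a phosphodiesterase.

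CREB-family proteins bind the cAMP response element TGACGTCA, so the promoter windows of members that hold the whole element are shown, with the element in capitals. RefSeq promoter windows of rat assembly GRCr8, running from 250 bases before to 50 bases after an annotated start, were found for 64 of the 78 members. The element, which is its own reverse complement and therefore reads alike on both strands, was in 3 of 80 member windows (3.75%) and in 1.83% of all 33469 windows. Of these 3 windows, 2 belong to Crem. Counted by gene, the element was in 2 of 64 members and in 549 of all 27457 genes. The shorter form TGACG, searched on both strands and contained in the whole element, was in 30.0% of member windows and in 21.2% of all windows. By gene it was in 20 of 64 members and in 6325 of all 27457 genes. These matches are letters in a window and not measured binding.
Crem, chr17:58984547-58984846, plus strand: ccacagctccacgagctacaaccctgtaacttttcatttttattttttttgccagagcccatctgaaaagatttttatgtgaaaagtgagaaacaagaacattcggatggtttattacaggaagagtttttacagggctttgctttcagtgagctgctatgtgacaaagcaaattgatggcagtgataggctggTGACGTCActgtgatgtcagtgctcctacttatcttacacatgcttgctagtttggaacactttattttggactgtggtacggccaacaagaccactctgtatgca
Crem, chr17:58985240-58985539, plus strand: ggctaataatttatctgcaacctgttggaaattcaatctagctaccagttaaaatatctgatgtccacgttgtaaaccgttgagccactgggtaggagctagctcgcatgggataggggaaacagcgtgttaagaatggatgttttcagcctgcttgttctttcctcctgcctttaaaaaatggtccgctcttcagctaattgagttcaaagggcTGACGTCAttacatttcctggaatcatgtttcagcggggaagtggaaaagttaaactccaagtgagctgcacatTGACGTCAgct
Gnao1, chr19:11198388-11198687, minus strand: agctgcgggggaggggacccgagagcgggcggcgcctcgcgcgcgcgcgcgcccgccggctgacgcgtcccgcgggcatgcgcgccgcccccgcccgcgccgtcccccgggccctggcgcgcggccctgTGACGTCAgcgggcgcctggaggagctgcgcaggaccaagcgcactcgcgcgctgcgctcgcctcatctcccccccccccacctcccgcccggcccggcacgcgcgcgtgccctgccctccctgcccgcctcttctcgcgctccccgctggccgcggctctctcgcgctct
The element lies at −56 from the start in the first of the Crem windows, at −35 and 39 in the other, and at −121 in Gnao1. Crem, which encodes activators and cAMP-induced repressors of CREB target genes, had ratios of 0.095, 0.05 and 0.09 on arrays 1, 2 and 3. Gnao1, a G alpha subunit best known from neurons, had ratios of 0.05, −0.12 and 0.02. Crem was above 0 on every array and Gnao1 was not of 1 sign.

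All 78 members had a value on arrays 1 and 2, and 59 (75.6%) had one on array 3 as well. Of all 5086 named genes and unnamed probes, together called features, 3819 (75.1%) were measured on all 3 arrays. An array's ratios were centred on the median of its probes, probes of a gene were averaged, and the 3819 features were tested together with limma and Benjamini-Hochberg adjustment. A ratio carries no expression level, so presence of the labelled tissue's markers could not be checked. The 7 principal cell markers all had means above 0, or 6 of 7 without centring, with a median of 0.17, and Hsd11b2 among them passed the test at 0.49. The 4 proximal tubule markers also had means above 0, with a median of 0.12, where 55.7% of all features had means above 0. Whether cells of that segment were in the samples could not be checked from ratios. Of 2 thick limb markers, Umod had a mean of −0.18, with −0.39 on array 3, and Egf one of −0.03 with mixed sign. Their median was −0.11, and 1 neuronal marker had a mean of −0.11. Thin limb, intercalated cell, interstitial and smooth muscle, endothelial and leukocyte lists had medians between −0.04 and 0.02, and no gene outside the principal cell list passed. The endothelial value rested on 1 measured gene of 4, and the intercalated cell median on 2 of 5. Markers within a list differed, with Itgam at −0.39 and Cd4 at 0.16 among leukocyte markers. The thin limb list had 2 measured genes, Aqp1 at −0.19 and Slc14a2 at 0.10, so its median describes neither. Slc14a2 also stands among the cAMP-responsive genes taken up below. No erythrocyte marker was measured on all arrays. The part of cell composition in the members' ratios was not tested, and fewer cells of a type cannot be told apart from less RNA per cell.

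No member passed an adjusted p of 0.05 with limma. The share of all features that passed was 0.445%, that is 17 of 3819. The lowest adjusted p among members was 0.105, for Adcy2. At an unadjusted p of 0.05, 12 of the 59 members passed (20.3%), against 17.2% of all features, so the members' share lay near the background. Of these 12, 6 had a mean above 0, where the background share was 9.71%, and 6 had a mean below 0, where it was 7.52%. Above 0 on all 3 arrays were 16 members (27.1%), against 24.1% of features, and below 0 on all 3 were 10 (16.9%), against 14.6%. The median mean ratio was 0.00667 for the members and 0.0133 for all features, and without centring it was −0.0133 and −0.00667. Means above 0 numbered 32 and below 0 numbered 27, but 26 and 32 without centring, so signs of members near 0 depend on that choice. For the PKA subunits and Adcy2 the sign did not depend on centring or scaling. Member means ran from −0.36 for Prkar2b to 0.18 for Gnai3, and the median half-width of their 95% confidence intervals was 0.107. These intervals are not adjusted for the number of features, and even Prkar2b, Adcy2 and Gnai3 did not pass the adjusted threshold. With array 1, 2 or 3 left out, 0 members and 0 features passed. Some alternative settings called members. Scaling the arrays to a common spread called 2 members (2.57% of features), array weights 15 (27.6%), a robust prior 1 (2.46%) and leaving out exact zeros 1 (2.35%). None was called without centring (0.471%), with centring on complete features (0.393%), with centring within blocks of the array (0.524%), with probes tested singly (0.259%) or with only probes measured throughout (0.236%).

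**Figure D1:**
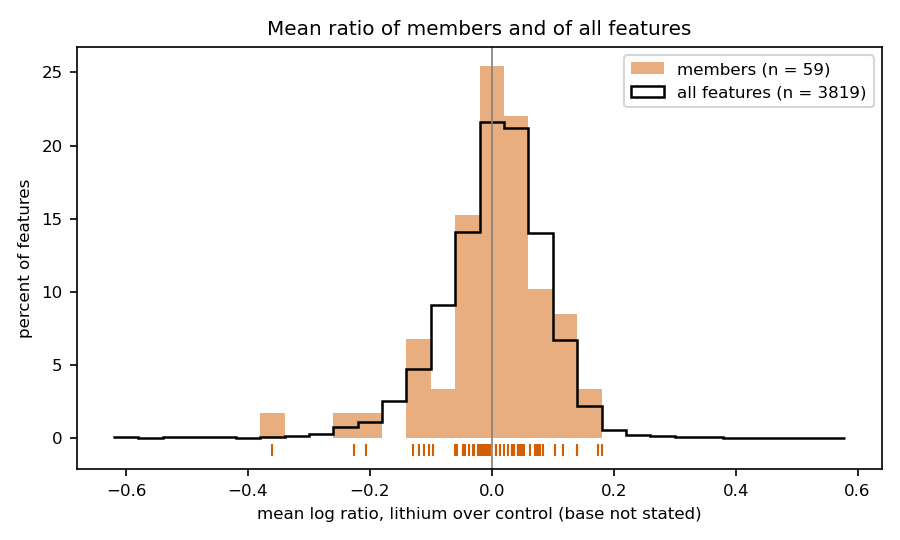
Percent of features (vertical axis) by mean log ratio, lithium over control, in bins of equal width (horizontal axis), for the 59 members in filled bars and all 3819 features as a line, with a tick under the bars for each member. The members sit on the distribution of all features, with medians of 0.00667 for members and 0.0133 for all features, and Prkar2b at −0.36 is the member farthest from 0.

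Of 11 G alpha genes, 10 were measured on all arrays, 6 with means above 0 and 4 below. Gnai3, an inhibitory G alpha subunit, was the highest member, with ratios of 0.14, 0.17 and 0.23. Its mean was 0.18 ± 0.05 (SD, n = 3, limma adjusted p = 0.128), a fold of 1.51 if the base is 10 and 1.13 if it is 2, and 98.8% of features had a lower mean. With the ratio turned, the folds of Gnai3 would be 0.661 and 0.883, it would be the lowest member, and 1.13% of features would have a lower mean. The other inhibitory subunits lay nearer 0. Gnai1 had ratios of 0.01, −0.11 and 0.16, and Gnai2 had −0.06, −0.03 and −0.08. Gnat3, gustducin of taste cells, had ratios of −0.15, −0.19 and −0.02, with a mean of −0.12 ± 0.09 (adjusted p = 0.256). Gnaq, which couples receptors to phospholipase C, had ratios of 0.18, −0.18 and 0.15, array 2 being opposite to the others. Its relatives Gna11 and Gna15 had means of 0.01 ± 0.01 and 0.05 ± 0.05, and Gna12 had one of 0.01 ± 0.13.

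Gnas, the stimulatory G alpha subunit that links the vasopressin receptor to cyclase, comes from a locus with several alternative transcripts and had 6 probes. Their average gave ratios of −0.01, −0.07 and −0.04 and a mean of −0.04 ± 0.03 (SD, n = 3, limma adjusted p = 0.664). This sign rested on 1 probe, which read −0.32 and −0.93 on arrays 1 and 2 and was empty on array 3. With the 5 probes that had a value on every array, the mean of Gnas was 0.04. Among those 5, the highest read 0.17, 0.16 and 0.06, and the lowest read 0.00, 0.03 and −0.09. Which transcript each probe binds was not determined here.

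G beta and gamma subunits form the dimer that is released with G alpha. The 4 G beta genes had means from −0.02 for Gnb1 to 0.04 for Gnb2, and none was of 1 sign on all arrays. Gnb2 had ratios of 0.02, 0.12 and −0.01. Gnb3 had the widest spread of the 4, with ratios of −0.08, −0.19 and 0.25. Of 8 G gamma genes, 6 were measured on all arrays. Gng8, known from the olfactory system, had ratios of 0.06, 0.15 and 0.10 (mean 0.10 ± 0.05, SD, n = 3, limma adjusted p = 0.257). Gng5, a broadly expressed subunit, had ratios of 0.06, 0.09 and 0.07 (mean 0.07 ± 0.02, adjusted p = 0.377). These 2 were above 0 on every array, while Gng2, Gng4, Gng11 and Gng12 had means between −0.02 and 0.07 and were of mixed sign.

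RGS proteins speed up GTP hydrolysis by G alpha subunits, and 7 of 14 such genes were measured on all arrays, 5 with means above 0 and 2 below. Rgs12, a large multidomain member, had ratios of 0.09, 0.26 and 0.17, with a mean of 0.17 ± 0.09 (SD, n = 3, limma adjusted p = 0.153). Rgs14, its close relative with a domain that binds inactive Gi subunits, had ratios of 0.14, 0.08 and 0.20, with a mean of 0.14 ± 0.06 (adjusted p = 0.177). Both were above 0 on every array and among the highest 5 members. Rgs8, best known from brain, had ratios of −0.19, −0.13 and −0.07, with a mean of −0.13 ± 0.06 (adjusted p = 0.194), and lay below 0 on every array. Rgs2, which acts on Gq and is induced by cAMP, had ratios of −0.12, 0.00 and 0.03. Rgs1, Rgs7 and Rgs11 had means between 0.03 and 0.04.

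Of 8 adenylyl cyclase genes, 6 were measured on all arrays, 3 with means above 0 and 3 below. Adcy2, a cyclase that G beta gamma can stimulate, had ratios of −0.27, −0.18 and −0.17, all below 0 and close together. Its mean was −0.21 ± 0.06 (SD, n = 3, limma adjusted p = 0.105, 95% confidence interval −0.31 to −0.11), a fold of 0.621 if the base is 10 and 0.867 if it is 2. Its adjusted p lay between 0.00132 and 0.742 under 14 alternative settings, of which 4 were past the threshold. Adcy6, a calcium-inhibited cyclase that vasopressin uses in the collecting duct, had ratios of 0.02, 0.07 and 0.22, and array 3 gave most of its mean of 0.10 ± 0.10 (adjusted p = 0.342), which was 0.045 without array 3. Adcy5, its closest relative, had ratios of −0.04, −0.03 and −0.07, with a mean of −0.05 ± 0.02 (adjusted p = 0.571). Adcy3, a calmodulin-sensitive cyclase, had ratios of 0.04, −0.06 and 0.01 and Adcy7 had 0.01, 0.11 and 0.04, while Adcy4 had −0.02, 0.15 and 0.00. Apart from Adcy2, all 5 had intervals that included 0.

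Phosphodiesterases remove cAMP or cGMP. Of 14 such genes, 9 were measured on all arrays, 4 with means above 0 and 5 below. Pde4a, a cAMP-specific form, had ratios of 0.04, 0.16 and 0.22, with a mean of 0.14 ± 0.09 (SD, n = 3, limma adjusted p = 0.212). It was above 0 on every array, as was Pde3a, the cGMP-inhibited form, at 0.13, 0.05 and 0.05 (mean 0.08 ± 0.05, adjusted p = 0.381). Pde1a, another calmodulin-activated form, had ratios of 0.06, 0.08 and −0.04. Pde1b had ratios of −0.11, 0.05 and −0.23 and Pde2a had −0.07, 0.06 and −0.13, so array 2 was the high one for both. Pde4c had ratios of 0.09, 0.17 and −0.07.

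Among the regulatory subunits of PKA, which hold the catalytic subunits inactive until cAMP binds, all 3 means lay below 0, and both catalytic subunits lay above. Prkar2b, the type II beta subunit, had ratios of −0.20, −0.73 and −0.15 on arrays 1, 2 and 3, with a mean of −0.36 ± 0.32 (SD, n = 3, limma adjusted p = 0.176). Lithium over control was 0.437 if the base is 10 and 0.779 if it is 2, and array 2 stood far below the other two. Without array 2 its mean was −0.175. Across all features array 2 also had the widest spread, with an SD of 0.135 against 0.0992 and 0.114 on arrays 1 and 3. Of all features, 0.105% were lower than Prkar2b on array 2, against 2.17% on array 1 and 8.09% on array 3. With the ratio turned, the folds would be 2.29 and 1.28, and 99.8%, 97.4% and 90.5% of features would be lower on arrays 2, 1 and 3. Prkar2a, the type II alpha subunit, had ratios of −0.02, −0.40 and −0.26, with a mean of −0.23 ± 0.19 (adjusted p = 0.183). It lay near 0 on array 1, and 1.52% of features were lower on array 3. Its mean was −0.14 without array 2 and −0.07 with array weights. Prkar1a, the type I alpha subunit, had ratios of −0.11, 0.10 and −0.12, of mixed sign, with a mean of −0.04 ± 0.12 (adjusted p = 0.723). The catalytic subunit gene Prkaca had ratios of 0.01, 0.01 and 0.08, and Prkacb had 0.03, 0.18 and 0.04, with means of 0.03 ± 0.04 and 0.08 ± 0.08 (adjusted p = 0.712 and 0.393).

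Within an array, the mean of the 3 regulatory subunits minus that of the 2 catalytic ones does not depend on where the array is centred. It was −0.13 on array 1, −0.44 on array 2 and −0.24 on array 3, so the regulatory mean was the lower one on every array. The comparison was chosen after the values were seen, and an exact two-sided sign permutation over 3 arrays gives p = 0.25, the smallest it can give. On array 2 the type II subunits averaged −0.57, while Prkar1a stood at 0.10, above Prkaca at 0.01. On array 1 the type II mean and Prkar1a were both −0.11. Prkar2b passed in 2 of 14 alternative settings, namely after scaling to a common spread and with array weights, and Prkar2a in 0 of them.

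**Figure D2:**
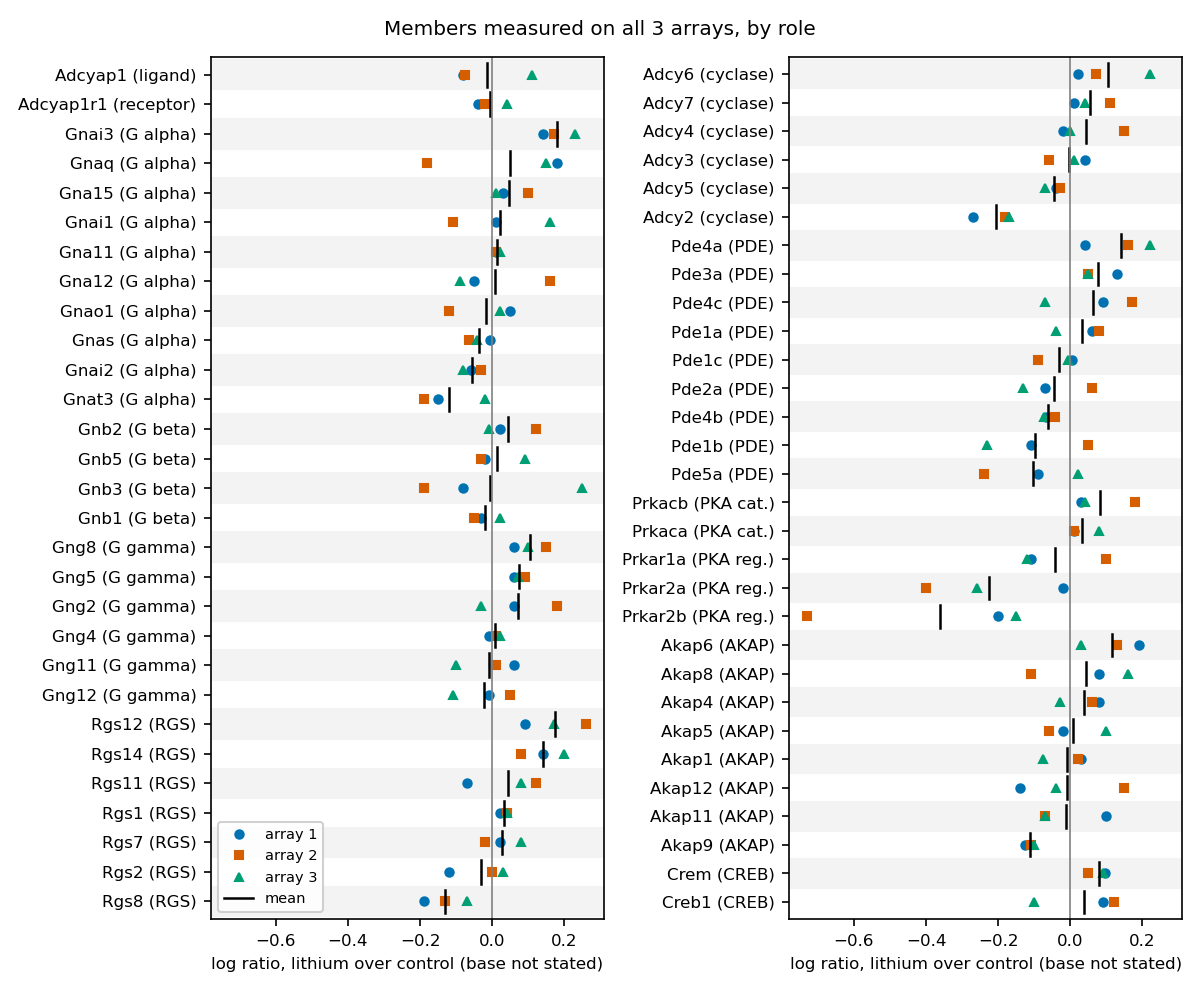
Log ratio, lithium over control (horizontal axis, base not stated), of each of the 59 members on array 1 (circle), array 2 (square) and array 3 (triangle), with the mean as a bar, in order of role. Most points lie within 0.2 of 0, and the PKA regulatory subunits Prkar2b and Prkar2a reach −0.73 and −0.40 on array 2.

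Anchoring proteins tether PKA, chiefly through its type II regulatory subunits, and 8 of 9 such genes were measured on all arrays, 4 with means above 0 and 4 below. Akap9, a Golgi and centrosome anchor, had averaged ratios of −0.125, −0.11 and −0.10, with a mean of −0.11 ± 0.01 (SD, n = 3, limma adjusted p = 0.215). This small spread joined 2 probes that differed from each other by 0.23 and 0.26 on arrays 1 and 2. Akap6, an anchor at the nuclear envelope known from heart, had ratios of 0.19, 0.13 and 0.03, with a mean of 0.12 ± 0.08 (adjusted p = 0.256). Akap1, an anchor at mitochondria, had ratios of 0.03, 0.02 and −0.08, and Akap12, a scaffold for the beta-adrenergic receptor, had −0.14, 0.15 and −0.04. The rest, Akap4, Akap5, Akap8 and Akap11, had means between −0.01 and 0.04 and were of mixed sign.

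Of the factors at the nuclear end of the path, Crem was above 0 on every array and Creb1 was of mixed sign. Creb1, the cAMP response element binding protein itself, had ratios of 0.09, 0.12 and −0.10, so array 3 was opposite to the others, and a mean of 0.04 ± 0.12 (SD, n = 3, limma adjusted p = 0.767). Crem, whose promoter windows are printed above, had a mean of 0.08 ± 0.03 (adjusted p = 0.353), and its 2 probes had means of 0.07 and 0.08. Adcyap1, the PACAP ligand, had ratios of −0.08, −0.08 and 0.11, the last from 1 of its 2 probes.

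The probes of other members differed as well. Pde4b, a phosphodiesterase specific for cAMP, had 3 probes. One read −0.24, −0.26 and −0.33 on arrays 1, 2 and 3, another 0.11, 0.16 and 0.07, and the last −0.07, −0.03 and 0.04. When probes were tested singly, the lowest had a mean of −0.28 ± 0.05 (SD, n = 3, limma adjusted p = 0.0558), the smallest p of any member probe, and the highest had one of 0.11 ± 0.05 (adjusted p = 0.243). The gene average, at −0.07, −0.04 and −0.07 on the arrays and −0.06 ± 0.02 in the mean (adjusted p = 0.452), thus joined probes of opposite sign. Akap9 was similar in kind, with 1 probe at −0.24, −0.24 and −0.10 and the other at −0.01, 0.02 and −0.10. Gnai2 had 1 probe at −0.16, −0.18 and −0.04 and the other at 0.04, 0.12 and −0.12, so their signs differed on arrays 1 and 2. Akap1 had 1 probe at 0.00, −0.08 and 0.00 and the other at 0.06, 0.12 and −0.15. Adcyap1r1, the PACAP receptor, had 1 probe above 0 on every array (0.19, 0.09 and 0.07), and the other read −0.27, −0.13 and 0.01, so that the gene stood at −0.04, −0.02 and 0.04. Of the 4 probes of Pde1c, a calmodulin-activated phosphodiesterase, 3 were made to the same sequence record, and on array 2 these read 0.00, 0.06 and −0.45. The one at −0.45 was empty on array 3, and without it the mean of Pde1c was 0.01 rather than −0.03. Pde5a, which degrades cGMP, had 1 probe at −0.14 and −0.58 on arrays 1 and 2 and empty on array 3, and its other probe read −0.04, 0.10 and 0.02. The mean of Pde5a was −0.10 with both probes and 0.03 with the one measured throughout, and with both probes it was −0.035 without array 2 and −0.165 without array 3.

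**Figure D3:**
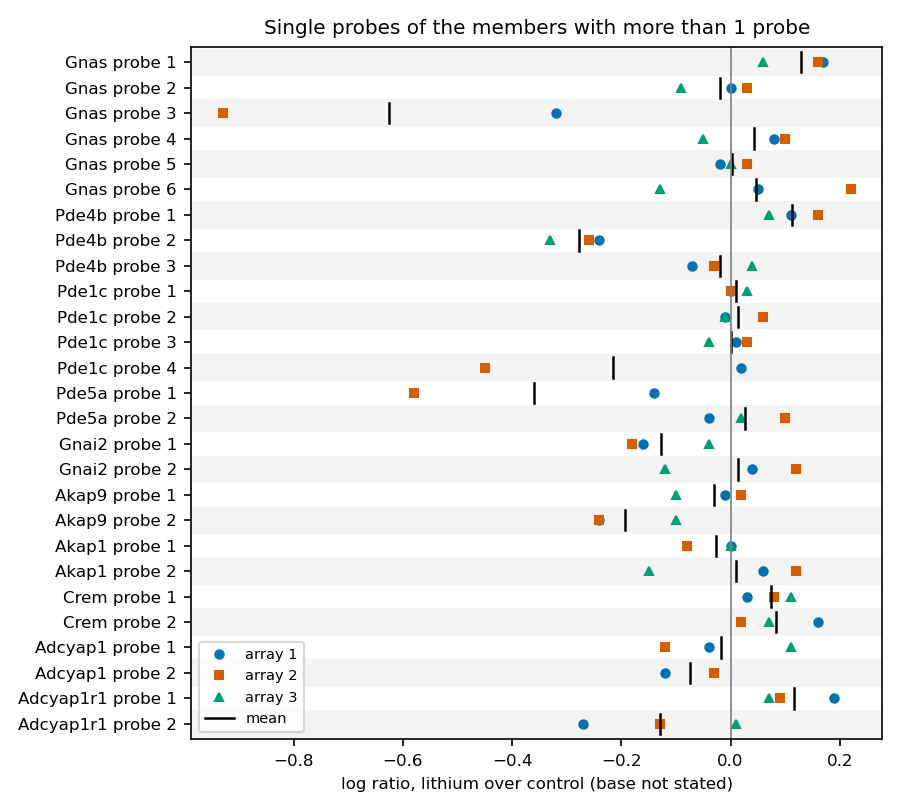
Log ratio, lithium over control (horizontal axis), of each single probe of the 10 members with more than 1 probe, on array 1 (circle), array 2 (square) and array 3 (triangle), with the mean of its values as a bar. The probes of Pde4b lie on both sides of 0 without overlap between the highest and the lowest, and the lowest probes of Gnas, Pde1c and Pde5a have no value on array 3.

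The 19 members without a value on array 3 lay low on the other arrays. Of them 15 were below 0 on both arrays 1 and 2 (78.9%), against 65.7% of all 1083 features that were empty on array 3 alone, and 2 were above 0 on both, against 7.94%. Among members that had a value on array 3, 17 of 59 (28.8%) were below 0 on both, against 21.9% of such features. The median of the 19 was −0.12 on array 1 and −0.25 on array 2, and that of the 1083 features was −0.08 and −0.16. On arrays 1 and 2, members empty on array 3 were thus lower than the other members, and so were all features empty there. Array 3, the one with a single rat per channel, had values for 4287 of 5760 probes, against 5582 and 5682 on arrays 1 and 2, and the part of spot brightness in these ratios was not tested.

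Adcy10, the soluble cyclase that bicarbonate activates, was the lowest of these, with ratios of −0.69 and −0.55 on arrays 1 and 2. In a fit over features measured on at least 2 arrays it had a mean of −0.62 (n = 2, 95% confidence interval −0.78 to −0.46, limma adjusted p = 0.0427) and was the only member called, where 0.811% of features were. In a fit of arrays 1 and 2 alone, chosen after seeing the data, 0 of 78 members passed, as did 0% of features, and Adcy10 had an adjusted p of 0.254. Pde4dip had ratios of −0.37 and −0.39, Pde3b, the phosphodiesterase of insulin action, −0.33 and −0.28, and Pde4d, the cAMP-specific form linked to Aqp2 vesicles, −0.22 and −0.26. Of the 7 RGS genes empty on array 3, Rgs3 read −0.25 and −0.50, Rgs4 −0.16 and −0.50, Rgs10 −0.20 and −0.30, Rgs9 −0.26 and −0.23, Rgs6 −0.13 and −0.29, and Rgs19 −0.03 and −0.04. Rgs5, a marker of pericytes, read 0.00 and 0.01. Gnaz, an inhibitory G alpha subunit that pertussis toxin does not modify, read −0.12 and −0.50. Adcy8, Akap14, Gng3 and Pde10a had both values between −0.25 and −0.08, and Gng7, Pde6h and Pde7a had values between 0.00 and 0.14. At an unadjusted p of 0.05 on those 2 arrays, 9 of the 19 passed (47.4%), against 33.1% of the 1083 features and 15.0% of all 4902 features measured on both arrays.

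**Figure D4:**
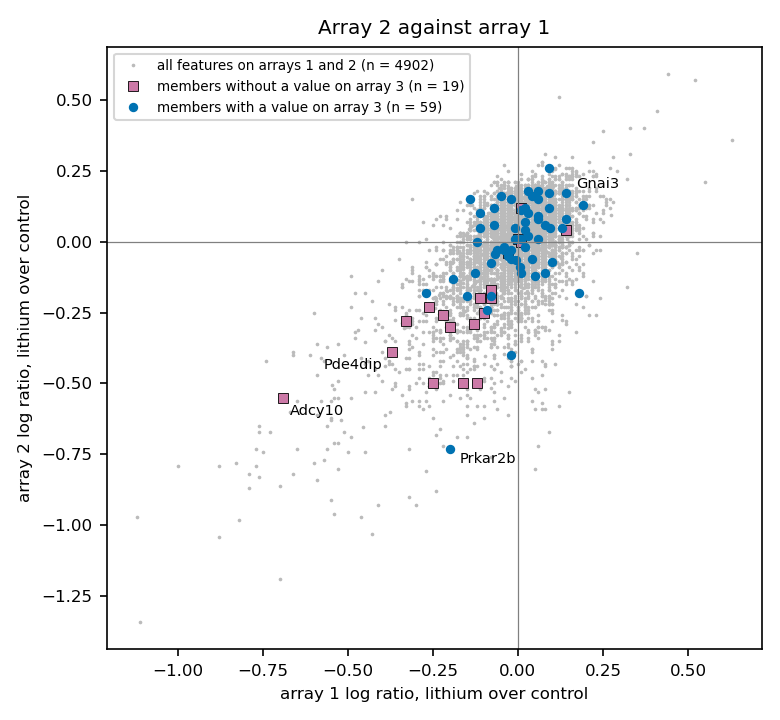
Log ratio, lithium over control, on array 2 (vertical axis) against array 1 (horizontal axis) for 4902 features (grey), the 19 members with no value on array 3 (squares) and the 59 members with one (circles). The squares lie mostly in the lower left, down to −0.69 and −0.55 for Adcy10, while most circles lie around 0.

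Across the 59 members, Pearson's r was 0.45 between arrays 1 and 2, 0.44 between arrays 1 and 3 and 0.25 between arrays 2 and 3, and across all 3819 features it was 0.46, 0.48 and 0.16. These are correlations across genes that share labelling, array and centring, and genes are not independent replicates.

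Genes that act with the members but lie outside the prefix rule were taken from a list of 78 genes, of which 55 were measured on all arrays. None of them passed an adjusted p of 0.05 with limma, and at an unadjusted p of 0.05, 7 had means above 0 (12.7%, against 9.71% of all features) and 8 below (14.5%, against 7.52%). Among 12 receptors that act mostly through the stimulatory G protein, 8 had means below 0 and 4 above. Their median was −0.045, against 0.0133 for all features. Without centring 10 were below and 2 above, with a median of −0.065, against −0.00667 for all features. The beta-adrenergic receptor Adrb3 had ratios of −0.24, −0.21 and −0.17, with a mean of −0.21 ± 0.04 (SD, n = 3, adjusted p = 0.0918). The adenosine receptor Adora2a had ratios of −0.15, −0.21 and −0.16, with a mean of −0.17 ± 0.03 (adjusted p = 0.128). Ptgir, the prostacyclin receptor, was the lowest, with ratios of −0.24, −0.88 and −0.20, array 2 standing apart. The vasopressin receptor Avpr2 lay on the other side of 0, with ratios of 0.09, 0.03 and 0.27 and a mean of 0.13 ± 0.12 (adjusted p = 0.278), which was 0.06 without array 3. That list also held Npr1, a natriuretic peptide receptor that makes cGMP and does not couple to a G protein, at −0.05 ± 0.05.

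Of 17 receptors that act mostly through Gi or Gq, the median was 0.00, and 9 had means above 0 and 8 below. Without centring 6 were above and 11 below, with a median of −0.0167, against −0.00667 for all features. Casr, the calcium-sensing receptor, had ratios of −0.23, −0.18 and −0.36, with a mean of −0.26 ± 0.09 (SD, n = 3, limma adjusted p = 0.0918). Of 7 genes of receptor desensitisation, 5 had means above 0, and the receptor kinase Grk4 had ratios of −0.085, −0.13 and −0.24. Among 6 other effectors and PKA inhibitors, Rapgef4, a cAMP-activated exchange factor for Rap, had ratios of −0.07, −0.56 and −0.08. Array 2 was the low one here, as it was for Prkar2b, and it had the widest spread across all features.

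All 13 measured cAMP-responsive genes had means above 0, against 55.7% of all features. Their median was 0.12, against 0.0133 for all features, and Junb at 0.003 and Aqp3 at 0.007 lay below the latter. Means above 0 numbered 11 without centring and with centring on features measured on all 3 arrays, and 12 after scaling to a common spread. This list was chosen with earlier results of these data known, so its counts are a description and not a test. The sodium channel subunit gene Scnn1b had ratios of 0.28, 0.30 and 0.13, with a mean of 0.24 ± 0.09 (SD, n = 3, limma adjusted p = 0.105). Scnn1g had ratios of 0.20, 0.12 and 0.23, with a mean of 0.18 ± 0.06 (adjusted p = 0.130). Both were above 0 on every array, as was Aqp2, with a mean of 0.17 ± 0.08 (adjusted p = 0.153). The immediate early gene Egr1 had ratios of 0.16, 0.25 and 0.48, with a mean of 0.30 ± 0.17 (adjusted p = 0.117). The list holds 4 genes that also stand among the principal cell markers, so these lists are not separate evidence. The same list holds Slc14a2 of the thin limb list. Lithium is known to lower Aqp2 in the collecting duct, and the ratio above 0 on every array (0.11, 0.26 and 0.14) leaves doubt about the direction assumed for all ratios. If the direction were the opposite, every log ratio would change sign with its p unchanged, and folds, shares and ranks would turn with it. Adcy2 would then have a fold of 1.61 in base 10 or 1.15 in base 2.

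**Figure D5:**
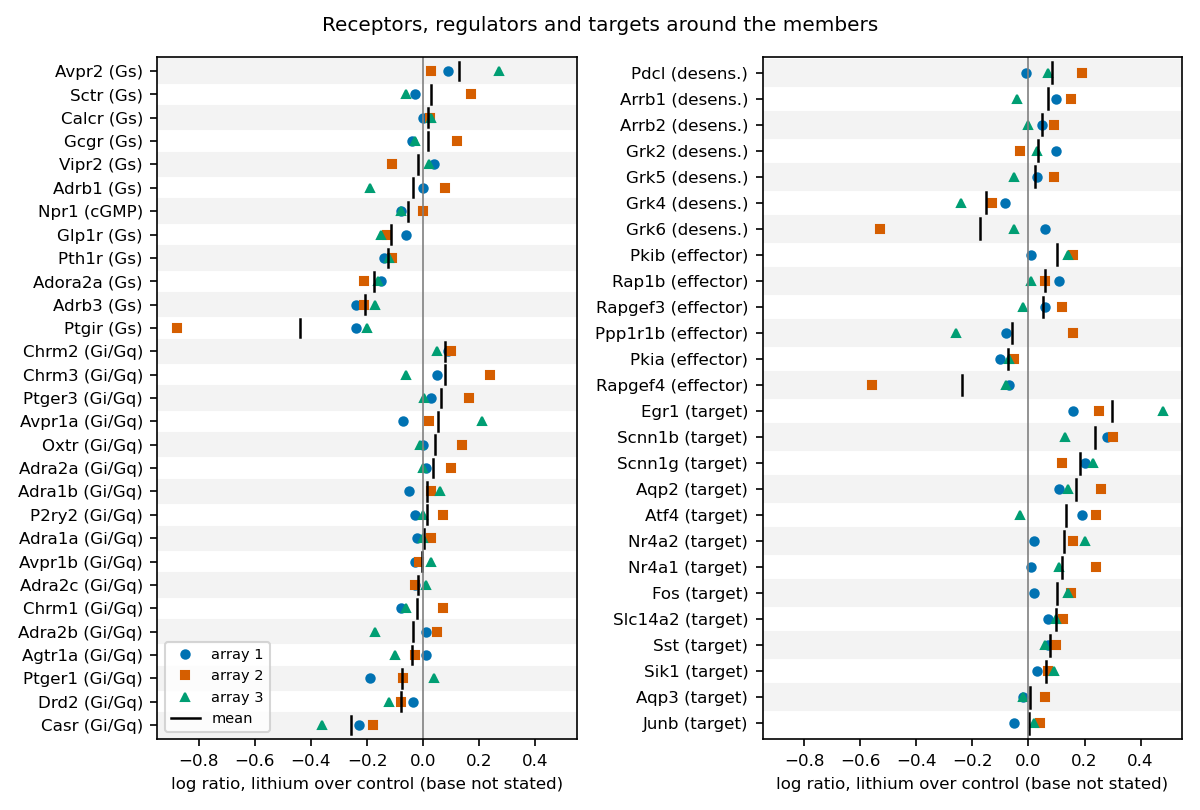
Log ratio, lithium over control (horizontal axis), of 55 receptors, desensitising proteins, effectors and cAMP-responsive targets on array 1 (circle), array 2 (square) and array 3 (triangle), with the mean as a bar, ordered by class and mean. Targets lie mostly to the right, with means from 0.00 to 0.30. Receptors of the stimulatory class reach down to a mean of −0.44 for Ptgir.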

How the data were processed

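Lithium and control RNA of rat inner medulla were compared on 3 two-channel spotted arrays, per the labels. The deposited values are log ratios whose base the authors do not state in the sources used here, and folds were computed for log10 and for log2. Background correction, normalization, filters and direction of the ratio are not given in the sources used here. Column medians as deposited were −0.02, −0.04 and 0.00. The platform's public annotation gave 5064 probes 1 symbol, 9 several and 687 none, and all 78 member gene IDs were in a gene table of assembly GRCr8. Each array's median was subtracted, probes were averaged per gene ID, and features measured on all 3 arrays were fitted with limma 3.58.1 in R 4.3.3 (intercept only, eBayes, two-sided, Benjamini-Hochberg over all features, adjusted p of 0.05). The fit was tested on simulated ratios. Rats differ between the arrays, so the SD holds biological and technical spread. The number of arrays limits precision. Members and lists were chosen with earlier results of these data known. Values on each array are given for the 10 highest and 10 lowest members of 1 sign, the smallest p per role, the vasopressin path and members whose probes differ, and of the partners for the 6 smallest p, Avpr2 and Aqp2. Further members, Grk4, Rapgef4, Npr1 and Ptgir were named after their values were seen. Tables and figures used Python 3.11.15, pandas 2.3.3, numpy 2.4.6, scipy 1.17.1 and matplotlib 3.10.9.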

Additional observations from a re-analysis of the deposited data

How the results depend on the processing

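As reported, 17 features, 0 members and 0 pathway partners passed. These counts were 49, 0 and 2 at an adjusted p of 0.1, 98, 2 and 5 after scaling to a common spread, 1055, 15 and 16 with array weights, 94, 1 and 4 with a robust prior, and 81, 1 and 5 with exact zeros left out. Array weights came to 4.52 for array 1, 0.371 for array 2 and 0.596 for array 3, so that setting leans on array 1. With features measured on at least 2 arrays the count of features was 40, with 1 member (Adcy10), with single probes it was 11, with only probes measured on all 3 arrays 9, and without a prior 0, where 442 features had an unadjusted p of 0.05. With any 1 array left out, limma called between 0 and 0 features, members or partners. At an unadjusted limma p of 0.05, 5 of 59 members passed without array 1, against 172 of 3819 features. Without array 2 these counts were 8 and 606, and without array 3 they were 6 and 445. On arrays 1 and 2 alone, with all features measured on both, limma called 0 features. Members called were Adcy2 and Prkar2b with scaled arrays and Adcy2 with the robust prior and with zeros left out. The members of 1 sign were 26 of 59 as reported, against 1478 of 3819 features. With features on at least 2 arrays they numbered 43 of 78, against 2290 of 4930 features. On arrays 1 and 2 they numbered 58 of 78, against 3054 of 4902 features. With 1 array left out they numbered 30 to 41 of 59, against 1910 to 2433 of 3819 features. Fewer arrays have to agree in these settings. The members' median of 0.00667 became −0.0133 without centring, −0.01 with centring on complete features, 0.0139 with scaled arrays, −0.0075 with features on at least 2 arrays and on arrays 1 and 2, 0.0133 with single probes and with probes measured throughout, 0.0176 with array weights, and 0.005 to 0.0175 with 1 array left out. Over 534 values of 39 named genes under the alternatives, 12 turned sign, and 36 newly passed, 20 of them with array weights. The sign turned for Adcy3 (0.00300 scaled, 0.0300 with weights, −0.025 to 0.025 with 1 array left out) and Akap1 (0.0179 with weights, −0.0275 to 0.025 with 1 array left out). With 1 array left out it also turned for Adcyap1 (−0.0775 to 0.0175), Adcyap1r1 (−0.03 to 0.01) and Creb1 (−0.005 to 0.105). With only probes measured on all arrays it turned for Gnas (0.0407), Pde1c (0.00778) and Pde5a (0.0267), where the probe empty on array 3 is left out. The cause of the other changes was not tested. No paired analysis was possible because each array is itself a direct comparison and the 3 arrays form 1 group. The single-probe setting gives no value for genes with several probes.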
